A study of Mus musculus with 4 samples.

Results

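The Slitrk and Lrrtm genes encode synapse organisers, and their probes were examined in middle ears of mice exposed to diesel exhaust particles (DEPs). The group holds 10 genes, 6 of the Slitrk family and 4 of the Lrrtm family, and it was taken by gene symbol: every non-control probe whose RefSeq accession belongs to one of them, in both channels of all arrays. This gave 15 of 39429 probes, each spotted once. The group was chosen by the low ratio of Slitrk1 in the comparison reported here, so the ratios of its genes are given as a description, without a test. The experiment consisted of 4 arrays, each of which carried an extract of a DEP-treated mouse ear labelled with the red dye Cy5 and an extract of a control ear labelled with the green dye Cy3. The mice, 9 in all, were male BALB/c animals of 6 to 10 weeks. DEPs were given by inhalation on 5 days, 1 h each time, and RNA came from temporal bone tissue with the middle ear, dissected on day 14. The labels give the treatment of control ears as none, and the number of mice behind an extract is not stated in the sources used here, so the spread between arrays may be technical in part.

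Slitrk and Lrrtm proteins sit in the membrane of neurons, mostly on the receiving side of synapses, and carry leucine-rich repeats on the outside of the cell. Slitrk proteins bind receptor tyrosine phosphatases on the sending axon, of the LAR family to which Ptprd, Ptprs and Ptprf belong. Lrrtm proteins bind neurexins, and Lrrtm4 also binds glypicans. Each contact helps to build the synapse on both sides. The genes are known mainly from brain. Slitrk6 is the exception for an ear sample, since it is expressed in the developing inner ear and its loss causes deafness.

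In these data, Slitrk1, Slitrk4, Slitrk5 and Lrrtm1 had a lower mean signal in the DEP channel than in the control channel, and Slitrk6 had a higher one. These 5 genes are called measured in full, because on each of the 4 arrays the scanner software placed both signals of their brightest probe well above background. The direction follows the source names of the channels in the sample labels, and DEP channel and control channel mean the extracts so named. The study lists SLITRK1 with the genes that were higher after exposure, which is the opposite direction. It also reports qRT-PCR changes of other genes, SLITRK1 not among them, in the direction of its array results. The sources used here do not settle whether the extracts were exchanged between the channels. If they were, every log2 ratio below changes its sign, and each count or share of lower genes becomes one of higher genes. Control ears were always green and DEP ears red, so dye and exposure cannot be told apart. Array 1 had the lowest ratio of each of these 4 genes. Array 2 came next for Slitrk1 and Slitrk4, and array 3 for Slitrk5 and Lrrtm1. On array 4 the log2 ratios of the 5 genes lay between -0.01 and 0.47.

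Slitrk1, Slitrk6 and Slitrk5 are consecutive protein-coding genes on chromosome 14 in the RefSeq table of assembly GRCm38.p6, and Slitrk6, the only gene with a higher mean ratio, lies between the other two. Their promoter sequences are shown because these neighbours differed in direction. Each sequence is the 250 bases before the start of the gene, written 5′ to 3′ on the gene's strand, from RefSeq (GRCm38.p6), with CG dinucleotides in capitals. The windows are chr14:108914240-108914489 (minus strand) for Slitrk1, chr14:110755150-110755399 (minus strand) for Slitrk6 and chr14:111675777-111676026 (plus strand) for Slitrk5.
Slitrk1: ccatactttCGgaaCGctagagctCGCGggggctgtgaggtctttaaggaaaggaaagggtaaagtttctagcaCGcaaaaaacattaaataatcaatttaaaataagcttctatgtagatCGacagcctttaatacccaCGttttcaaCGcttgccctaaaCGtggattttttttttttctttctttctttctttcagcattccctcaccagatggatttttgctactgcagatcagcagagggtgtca
Slitrk6: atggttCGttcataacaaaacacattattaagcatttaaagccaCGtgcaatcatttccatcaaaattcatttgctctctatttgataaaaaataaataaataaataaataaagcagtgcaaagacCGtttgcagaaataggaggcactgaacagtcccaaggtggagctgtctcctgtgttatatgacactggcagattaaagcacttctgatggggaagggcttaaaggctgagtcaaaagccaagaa
Slitrk5: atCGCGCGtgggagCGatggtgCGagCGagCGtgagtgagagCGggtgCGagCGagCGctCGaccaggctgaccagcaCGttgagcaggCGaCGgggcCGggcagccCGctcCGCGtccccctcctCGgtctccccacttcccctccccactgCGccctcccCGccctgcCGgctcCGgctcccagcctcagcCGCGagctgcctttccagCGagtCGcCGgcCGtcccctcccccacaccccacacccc

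The window of Slitrk1 holds 9 CG dinucleotides at 40.4% G and C, that of Slitrk6 holds 3 at 37.2%, and that of Slitrk5 holds 30 at 74.8%. Over 32851 RefSeq windows of the same length the median was 6 CG dinucleotides and 52.4% G and C. At least as many CG dinucleotides as in Slitrk5 were found in 5.94% of these windows, as in Slitrk1 in 40.3% and as in Slitrk6 in 71.0%. The other genes of the group lie on chromosomes 3 (Slitrk3), X (Slitrk2 and Slitrk4), 6 (Lrrtm1 and Lrrtm4), 10 (Lrrtm3) and 18 (Lrrtm2). In the same table, Lrrtm1 lies inside Ctnna2, Lrrtm2 inside Ctnna1 and Lrrtm3 inside Ctnna3, genes of alpha-catenins that link cadherins to actin.

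The signals of Slitrk1, a gene linked to Tourette syndrome in humans, were measured in full with the probe A_51_P141012. Signals are processed intensities in arbitrary units, background-subtracted and corrected for the dyes within each array. In the DEP channel the signal was 60.7, 84.4, 124.8 and 84.1 on arrays 1 to 4. In the control channel it was 796, 515, 290.4 and 80.7. The control extracts of arrays 1 to 3 were above every DEP extract, and the control extract of array 4 lay among them, so the groups overlapped. The log2 ratio of DEP over control was -3.71, -2.61, -1.22 and 0.06 on arrays 1 to 4, with a mean of -1.87 ± 1.64 (SD, n = 4 arrays). On a linear scale, control exceeded DEP 13.1-fold on array 1, 6.11-fold on array 2 and 2.33-fold on array 3. The control extracts spanned a 9.86-fold range of signal for Slitrk1 and the DEP extracts a 2.05-fold range. Array brightness enters these ranges, since the median control signal of probes measured in full was 930 on array 1 and 585 on array 4. Centred on the channel median, the log2 signal of Slitrk1 ran from -2.86 to -0.22 in control and from -3.93 to -2.24 in DEP extracts.

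A second Slitrk1 probe (A_55_P2029031) was dim. It was well above background on array 4 in both channels and on array 1 in Cy3 alone, with signals on array 4 of 101.6 in the DEP channel and 154 in the control channel. On arrays 1 to 3 its Cy5 signal was 10.7, 4.18 and 6.40, none of them well above background. The probes therefore differ in which array is brightest, and the array on which the second probe could be read is the one where the first showed no difference. Its ratio on array 4 was -0.60.

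Slitrk4 and Slitrk5 are close relatives of Slitrk1. The brighter of the Slitrk4 probes (A_55_P2130660) had signals of 57.9, 46.5, 54.1 and 82.8 in the DEP channel and of 488, 283, 50.8 and 59.7 in the control channel. Its log2 ratio was -3.07, -2.61, 0.09 and 0.47, with a mean of -1.28 ± 1.82 (SD, n = 4 arrays), so that the SD exceeded the size of the mean. Arrays 1 and 2 were low, and arrays 3 and 4 were slightly above 0. The other Slitrk4 probe (A_55_P1959576) had ratios of -3.11, -2.88, -0.59 and 0.58, with Cy5 well above background on arrays 3 and 4 only and Cy3 on arrays 1 to 3. Without array 1 the mean ratio of the brighter Slitrk4 probe was -0.68, and without array 2 it was -0.84.

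Slitrk5 (A_55_P1998872), whose loss in mice is known to cause excessive grooming, had signals of 43.9, 78.3, 81.7 and 106.7 in the DEP channel. In the control channel they were 265, 195, 228 and 88.2. Its log2 ratio was -2.60, -1.32, -1.48 and 0.28, with a mean of -1.28 ± 1.18 (SD, n = 4 arrays). Slitrk5 was low on array 3 as well, and the groups overlapped through array 4 alone. Its mean ratio was -0.84 without array 1.

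Slitrk6 (A_51_P503822) was in the opposite direction. Its signal in the DEP channel was 2059.9 on array 1, 867 on array 2, 612 on array 3 and 583 on array 4, against 589, 568, 550.2 and 565 in the control channel. Its log2 ratio was 1.81, 0.61, 0.15 and 0.05, above 0 on 4 of 4 arrays, with a mean of 0.65 ± 0.81 (SD, n = 4 arrays). The control extracts of Slitrk6 spanned a 1.07-fold range and the DEP extracts a 3.53-fold range, the reverse of Slitrk1. Array brightness enters these ranges too. Centred on the channel median, the log2 signal of Slitrk6 ran from -0.66 to -0.05 in control and from -0.01 to 1.15 in DEP extracts. Array 1 carried most of the difference, and without it the mean ratio of Slitrk6 was 0.27. On arrays 3 and 4 both channels lay within 1.11-fold and 1.03-fold of each other.

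**Figure D1:**
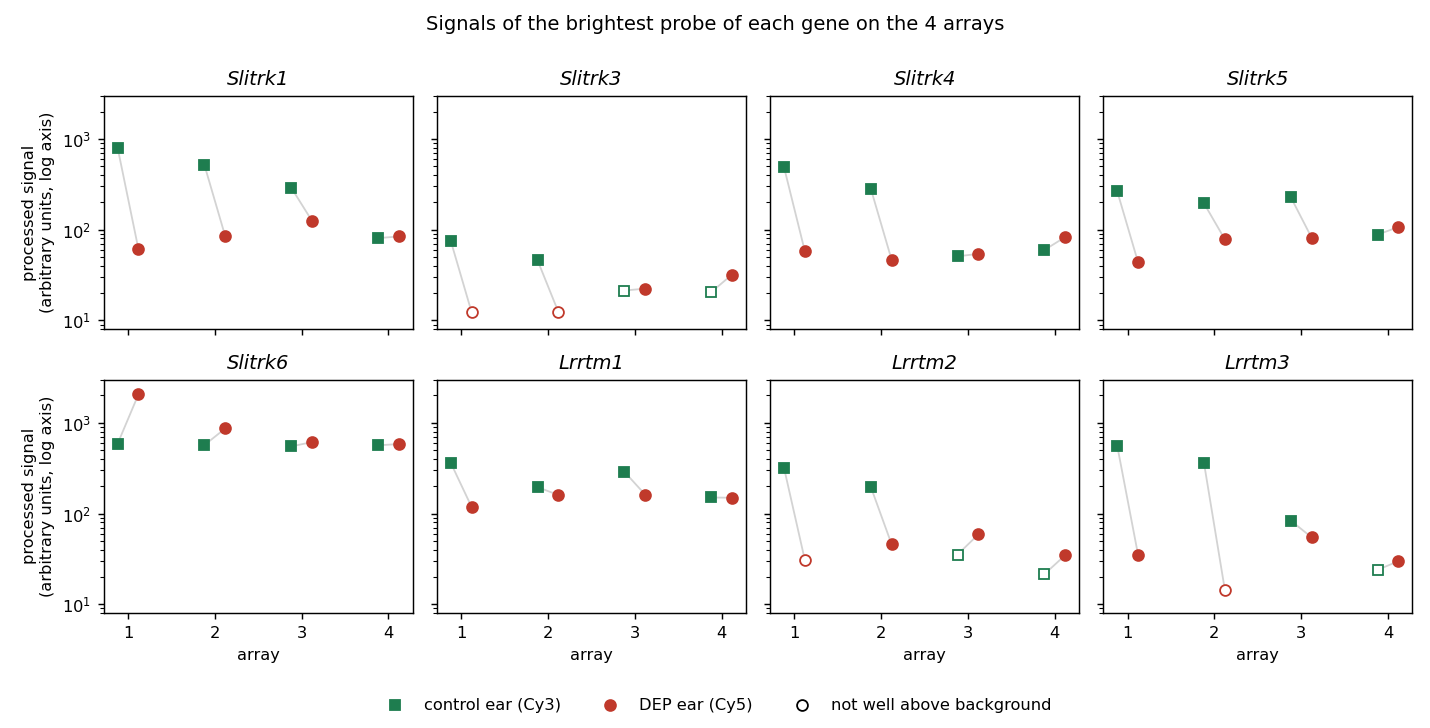
Processed signals (arbitrary units, log axis) of the brightest probe of 8 genes on each of the 4 arrays, with the control ear as green squares and the DEP ear as red circles, joined within an array by a grey line; open symbols were not well above background. The control signal of Slitrk1 spans 80.7 to 796 while its DEP signal spans 60.7 to 124.8, and for Slitrk6 the DEP signal spans 583 to 2059.9 over a control signal of 550.2 to 589. Signals are not corrected for differences in brightness between arrays.

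Lrrtm1 (A_55_P2019784) was the one Lrrtm gene measured in full. Its signals were 118, 160.1, 161 and 149 in the DEP channel and 361, 195, 289 and 150.4 in the control channel. The log2 ratio was -1.61, -0.29, -0.84 and -0.01, below 0 on 4 of 4 arrays, with a mean of -0.69 ± 0.71 (SD, n = 4 arrays). On array 4 the channels were nearly equal, and without array 1 the mean was -0.38.

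Lrrtm3, which like Lrrtm1 binds neurexins, had the lowest mean ratio of the 9 genes with ratios on at least 3 arrays. Its brighter probe (A_51_P488180) had signals of 35.4, 14.5, 54.7 and 29.8 in the DEP channel, the second of them not well above background. The signals in the control channel were 561, 361, 83.6 and 24.0, the last of them not well above background. Its log2 ratio was -3.99, -4.63, -0.61 and 0.31, with a mean of -2.23 ± 2.45 (SD, n = 4 arrays). The ratio of array 2 has a Cy5 signal at background and its size was therefore not measured. The mean ratio of Lrrtm3 was -1.43 without array 2, when that of Slitrk1 was -1.62. The other Lrrtm3 probe (A_66_P134355) was well above background in Cy3 on arrays 1 and 2, at 128 and 74.0, and in Cy5 on no array.

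Lrrtm2 (A_55_P2084413) had signals of 319, 197, 35.4 and 21.5 in the control channel, of which the first and second were well above background. In the DEP channel they were 30.8, 45.8, 59.1 and 34.8, all but the first well above background. Array 2 was the only array with both channels measured, and its ratio was -2.10. Over the 4 arrays the mean ratio of Lrrtm2 was -1.01 ± 2.06 (SD, n = 4 arrays), and it was -0.22 without array 1. The other Lrrtm2 probe (A_55_P2084418) was well above background once, in Cy3 on array 1 at 32.6. Slitrk3 (A_52_P47781) had a similar division. Its control signals were 74.8 and 45.8 on arrays 1 and 2, and its DEP signals were 22.4 and 32.0 on arrays 3 and 4, each well above background where the other channel was not. Its mean ratio was -0.95 ± 1.55 (SD, n = 4 arrays), and no array measured both channels of Slitrk3.

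Slitrk2 and Lrrtm4 were not detected. The probe for Slitrk2 and both probes for Lrrtm4 gave no signal well above background in Cy5 or Cy3, with signals between 3.89 and 27.3 for Slitrk2 and up to 17.9 for Lrrtm4. Their ratios are therefore ratios of background signals and measure no fold. Slitrk2 had ratios on 2 arrays and was left out of the counts that follow, which leaves 9 genes, Lrrtm4 among them with a mean ratio of -0.71.

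By mean log2 ratio of the brightest probe, 8 of the 9 genes were lower and 1 was higher in the DEP channel, and 44.7% of all genes tested were lower. Past 2-fold there were 5 lower genes (Slitrk1, Slitrk4, Slitrk5, Lrrtm2 and Lrrtm3) and 0 higher. Over the 17962 genes with a symbol and ratios on at least 3 arrays, 4.06% were past 2-fold lower and 2.15% past 2-fold higher. Among the 5 genes measured in full, 3 were past 2-fold lower, with 2.76% of the 14281 genes measured in full in the same class, and 0 were past 2-fold higher (0.791%). Of these 5 genes 4 were lower by mean ratio (44.3%), 1 was lower on all 4 arrays (10.2%) and 1 higher on all 4 arrays (15.4%). As this comparison chose the group, nothing is read from these counts. The genes nearest the limit were Lrrtm2 at -1.01 inside it and Slitrk3 at -0.95 outside it, but with both channels measured on 1 array and on 0 arrays their distance to it was not measured. The count of 5 became 2 without array 1 and 3 without array 2, where 2.83% and 3.38% of all genes were past 2-fold lower. It was also 2 (Slitrk1 and Lrrtm3) after another background correction, normexp, with either normalization of the arrays (1.78% of all genes with loess and 1.02% with median centring), although the direction of the mean was kept by all 9 genes under both.

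The median log2 ratio of the 9 genes was -2.61 on array 1, -1.89 on array 2, -0.60 on array 3 and 0.28 on array 4, while the median over all 17962 genes lay between -0.03 and 0.08. Of the 9 genes, 8 were below 0 on array 1, 7 on array 2, 5 on array 3 and 2 on array 4. Pearson's r between the ratios of 2 arrays, across all probes and so not across independent replicates, ranged from -0.22 (arrays 1 and 4) to 0.61 (arrays 1 and 2).

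**Figure D2:**
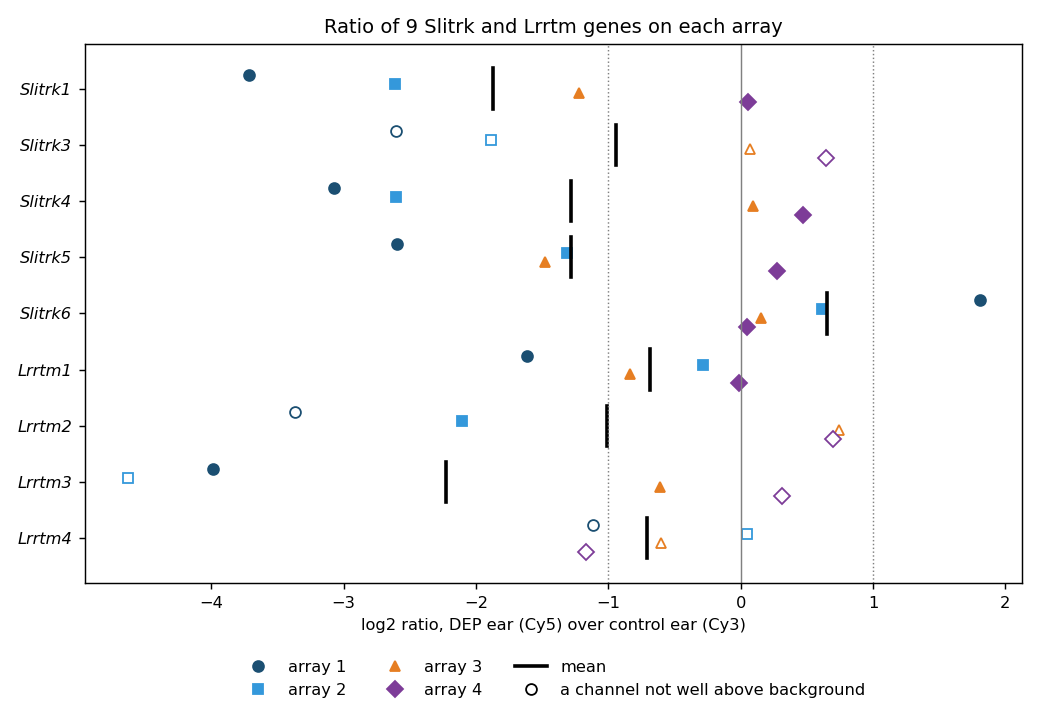
Log2 ratio of DEP over control (horizontal axis) for the brightest probe of 9 genes, with a symbol per array and a black bar for the mean; open symbols had at least 1 channel not well above background, and dotted lines mark 2-fold. Slitrk1 spans -3.71 to 0.06, Lrrtm3 reaches -3.99 on array 1 and -4.63 on array 2 (open), Lrrtm4 has open symbols throughout, and Slitrk6 is above 0 on all arrays.

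To see which extracts varied, each channel was centred on its median over the probes measured in full, and the SD of the centred log2 signal was taken over the 4 extracts of a channel. For Slitrk1 this SD was 1.20 in the control channel and 0.70 in the DEP channel. Of the 14281 genes measured in full, 2.19% had a control SD at least as large and 6.15% a DEP SD at least as large. Slitrk4 varied likewise, with 1.34 among control and 0.53 among DEP extracts. Slitrk5 and Lrrtm1 had SDs of 0.84 and 0.51 among DEP extracts and of 0.57 and 0.43 among control extracts. This order turned without the centring, where the control signals spanned 3.01-fold and 2.40-fold and the DEP signals 2.43-fold and 1.37-fold. Slitrk6 varied by 0.53 among DEP and 0.28 among control extracts. The median gene had SDs of 0.22 in the control channel and 0.19 in the DEP channel, so all 5 genes stood above the median in both.

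Genes with the pattern most like that of Slitrk1 over the 8 extracts were sought by Pearson's r of the centred log2 signals, as a description with no test, since channels share arrays and 1 slide. Among 14280 genes measured in full, r was highest for Napb (0.997), Gnao1 (0.996), Bmerb1 (0.995) and Serpini1 (0.994). Napb takes part in vesicle fusion at synapses, Gnao1 encodes an abundant G protein subunit of brain, and Serpini1 encodes neuroserpin. The signal of Gnao1, for example, was 734, 860.3, 1067 and 994 in the DEP channel and 5567, 3944, 2364 and 847 in the control channel. Within the group itself, r with Slitrk1 was 0.88 for Slitrk5, 0.81 for Slitrk4, 0.80 for Lrrtm1 and -0.85 for Slitrk6.

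For Slitrk6 the same measure, added after its values were seen, gave Il13ra1 (0.989), Camkmt (0.988), Serpinb3c (0.986), Gng12 (0.984) and Plekha6 (0.983). Il13ra1, a receptor chain for interleukins of type 2 immunity, had log2 ratios of 1.64, 0.39, 0.08 and 0.06. Serpinb3c, a protease inhibitor of squamous epithelium, had ratios of 2.92, 0.59, 0.28 and 0.39. The list of 8 markers of airway-type epithelium had a median of -0.14 on array 1, where Slitrk6 was highest. Its members ranged there from -1.32 (Ltf) to 2.17 (Krt5). The part of epithelium in the ratio of Slitrk6 was not tested.

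Most marker genes of nervous tissue had mean ratios below 0, with medians that differed between arrays and lists. The list of neuron markers had medians of -2.27, -1.25, -1.03 and 0.34 on arrays 1 to 4. Its 14 genes were all measured in full and 14 of 14 were lower by mean ratio, while 44.7% of all genes tested were lower. That share is also the comparison for the lists that follow. Cerebellum markers had medians of -2.63, -3.36, -0.18 and 0.25, with 12 of 12 genes lower, 8 of them measured in full. Astrocyte markers had medians of -1.90, -0.45, -0.07 and 0.21, with 7 of 8 lower. Summed signals of the neuron markers ranged from 35153 to 46854 in the DEP channel and from 34923 to 115301 in the control channel. Those of the astrocyte markers ranged from 55199 to 65773 and from 46372 to 252235, in the same order. The sum over cerebellum markers was mostly Pvalb, which fast muscle also expresses. Without Pvalb, a choice made after seeing the data, it ranged from 8780 to 18467 in the DEP channel and from 7521 to 128728 in the control channel over 11 genes. Within the cerebellum list, Cbln3 and Car8 were not well above background in any DEP extract. Peripheral sensory and autonomic neuron markers had medians of -0.85, -0.13, -1.71 and 0.14, with 7 of 7 lower, 5 of them measured in full. Dbh of this list was well above background on 1 array in each channel. Central myelin markers had medians of -1.20, -0.33, -0.26 and 0.21, with 4 of 5 lower, and Mbp of this list was above 0 on 4 of 4 arrays. The part of nervous tissue in the ratios of the Slitrk and Lrrtm genes was not tested. In whole-tissue extracts, fewer cells of a type and less RNA per cell cannot be told apart.

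The medians of the lists for other tissues lay on both sides of 0. Airway-type epithelium of the middle ear had medians of -0.14, 0.47, -0.13 and -0.49, with all 8 markers measured in full, and Muc5b, a mucin of this list, was lower on 4 of 4 arrays (-1.09, -0.49, -2.51 and -1.55). Schwann cell markers lay between -0.46 and 0.34, inner ear markers between -0.53 and 0.39 (Cdh23 and Strc of hair cells were not above background), bone and cartilage between -0.43 and 0.23, blood and marrow between -0.60 and 0.48, and skeletal muscle between -0.81 and 0.77.

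**Figure D3:**
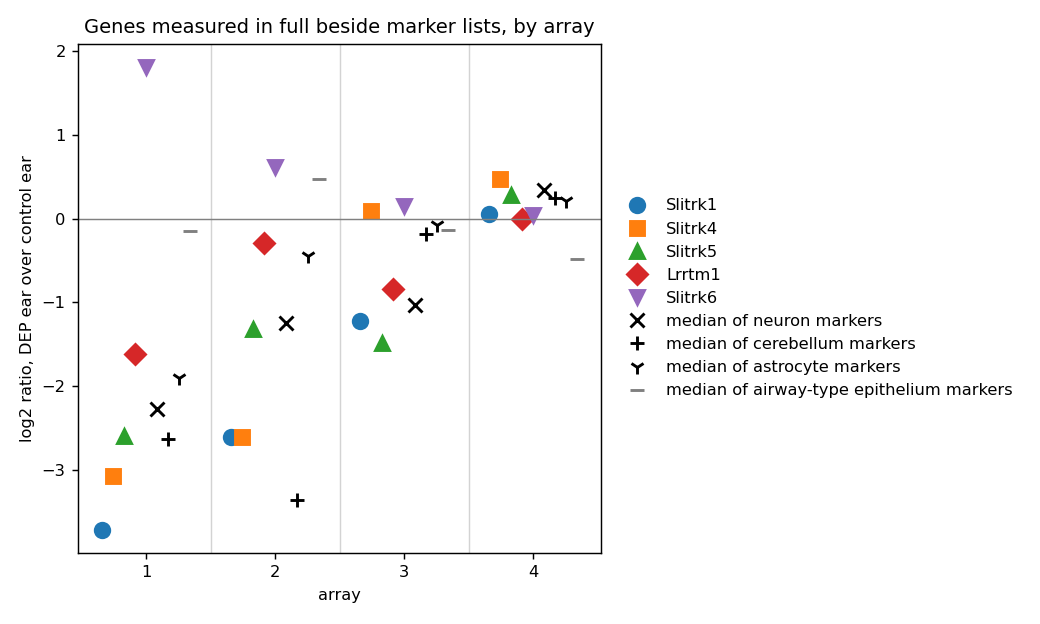
Log2 ratio of DEP over control (vertical axis) on each array for the 5 genes measured in full, beside the medians of marker lists for neurons, cerebellum, astrocytes and airway-type epithelium. On array 1 Slitrk1 (-3.71) lies below the neuron median (-2.27) and Slitrk6 (1.81) above all lists, and on array 4 the 5 genes lie between -0.01 and 0.47.

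Partners of these proteins on the sending side of the synapse had mean ratios of both signs, and no test compared the families. Nrxn2 and Nrxn3, neurexins of the family to which Lrrtm proteins bind, had low mean ratios. Nrxn2 had signals of 1123, 841, 958 and 716 in the DEP channel and of 7387, 4963, 1659 and 710.3 in the control channel. Its log2 ratios were -2.72, -2.56, -0.79 and 0.01, which average to -1.51 ± 1.34 (SD over 4 arrays, standard error 0.53, adjusted p = 0.243 from limma's moderated test over all probes). Arrays 1 and 2 had the lowest ratios, and the channels were nearly equal on array 4. Nrxn3 had ratios of -3.82, -3.44, -0.67 and -0.21, with a mean of -2.03 ± 1.86 (standard error 0.73, adjusted p = 0.249 from limma). The probes of Nrxn3 disagreed in size. Of the others measured in full, A_66_P127136 had a mean of -1.96 and A_55_P2165088 a mean of -0.31.

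The brightest probes of the phosphatases of the LAR family had mean ratios between -0.09 and 0.06. Ptprd had log2 ratios of -0.95, -0.07, 0.04 and 0.63, with a mean of -0.09 ± 0.65 (SD over 4 arrays, standard error 0.27, adjusted p = 0.878 from limma). It was 0.20 without array 1, and 0.06 with normexp and median centring, a setting that moved the median of all genes up by 0.15. Another Ptprd probe measured in full (A_55_P1987694) had a mean of -0.49 and was lower on 3 of 4 arrays. Ptprs was bright, with 12455 to 20822 in the DEP channel and 12869 to 19570 in the control channel, and its mean ratio was 0.01 ± 0.12 (standard error 0.11, adjusted p = 0.955 from limma). Ptprf had ratios of 1.59, 0.17, -0.28 and -1.25, which average to 0.06 ± 1.18 (standard error 0.47, adjusted p = 0.954 from limma). Its arrays 1 and 4 thus lay on opposite sides of 0, and its mean ranged from -0.45 to 0.51 over the alternatives. Gpc4, a glypican, had a mean ratio of 0.26 ± 0.37 (standard error 0.17, adjusted p = 0.463 from limma).

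Over the partner, organiser, scaffold and host genes listed, 39 of 41 had ratios. None had an adjusted p under 0.05 from limma (0 of 39, against 0.0% of all genes tested), nor in an ordinary least-squares test of the same ratios. With normexp and median centring, which moved the median of all genes up by 0.15 and called 12.4% of them, Ptprs (0.62, adjusted p = 0.0347 from limma) and Ctnna1 (0.67, adjusted p = 0.042 from limma) passed. At an unadjusted p under 0.05, 14 of the 39 were lower and 0 were higher, whereas 7.5% of all genes tested were lower and 9.19% higher at that level (16.7% in either direction). The ordinary test gave 6 lower at that level (5.35% of all genes). The number of 14 was 6 without array 1, 2 without array 2, 9 without array 3 and 22 without array 4. The share of all genes that were lower at that level was 5.41%, 3.99%, 4.72% and 9.92% in the same settings.

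Of other organisers on the receiving side, 15 of 16 were lower by mean ratio, against 44.7% of all genes tested. At an unadjusted p under 0.05, 8 of them were lower (7.5% of all genes), and 1 of the 8 (Il1rapl1) rested on a probe at background throughout. The median of this list was -0.63, against 0.04 over all genes tested. The 3 genes measured in full with the mean ratios largest in size were Nlgn3, a neuroligin, and Lrrc4c and Lrrc4, netrin-G ligands. Nlgn3 averaged -1.41 ± 0.85 (SD over 4 arrays, standard error 0.35, adjusted p = 0.168 from limma) and was lower on 4 of 4 arrays. With normexp it averaged -0.74 under loess and -0.77 under median centring. Lrrc4c had -1.25 ± 1.18 (adjusted p = 0.259 from limma), and Lrrc4 had -1.13 ± 1.86 (adjusted p = 0.442 from limma), low on arrays 1 and 2 only. Over the alternatives the mean of Lrrc4c ranged from -1.61 to -0.73 and that of Lrrc4 from -1.76 to -0.51.

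Scaffold genes of the postsynaptic density had a median of -0.26. Of these, 12 of 14 were lower by mean ratio (44.7% of all genes) and 4 were lower at an unadjusted p under 0.05 (7.5%). Dlgap3 had a mean of -1.62 ± 1.20 (adjusted p = 0.202 from limma), Dlgap1 had -1.57 ± 1.38 (adjusted p = 0.241 from limma), and Dlg4, which encodes PSD-95, had -1.36 ± 1.00 (SD over 4 arrays, adjusted p = 0.202 from limma). Each of these probes was below 0 on 4 of 4 arrays, although the channels of Dlg4 were nearly equal on array 4 (119.3 and 119.8). Dimmer probes of Dlgap1 (A_55_P1959728) and Dlgap3 (A_55_P1990179) were above 0 on array 4, at 0.10 and 0.47. Shank2 and Ctnna3 gave no ratio on at least 3 arrays and were not well above background.

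Host genes and their nested Lrrtm genes can be set side by side for 2 pairs. Ctnna2, the neural alpha-catenin that holds Lrrtm1, had log2 ratios of -2.77, -1.22, -0.91 and 0.42, with a mean of -1.12 ± 1.31 (SD over 4 arrays, standard error 0.52, adjusted p = 0.319 from limma). Over the alternatives the mean of Ctnna2 ranged from -1.63 to -0.57. Lrrtm1 had -1.61, -0.29, -0.84 and -0.01 on the same arrays. Ctnna1, the widely expressed alpha-catenin that holds Lrrtm2, had ratios of 0.54, 0.29, 0.03 and -0.12, with a mean of 0.19 ± 0.29 (standard error 0.15, adjusted p = 0.530 from limma). Lrrtm2 was low on arrays 1 and 2, where Ctnna1 was slightly above 0.

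**Figure D4:**
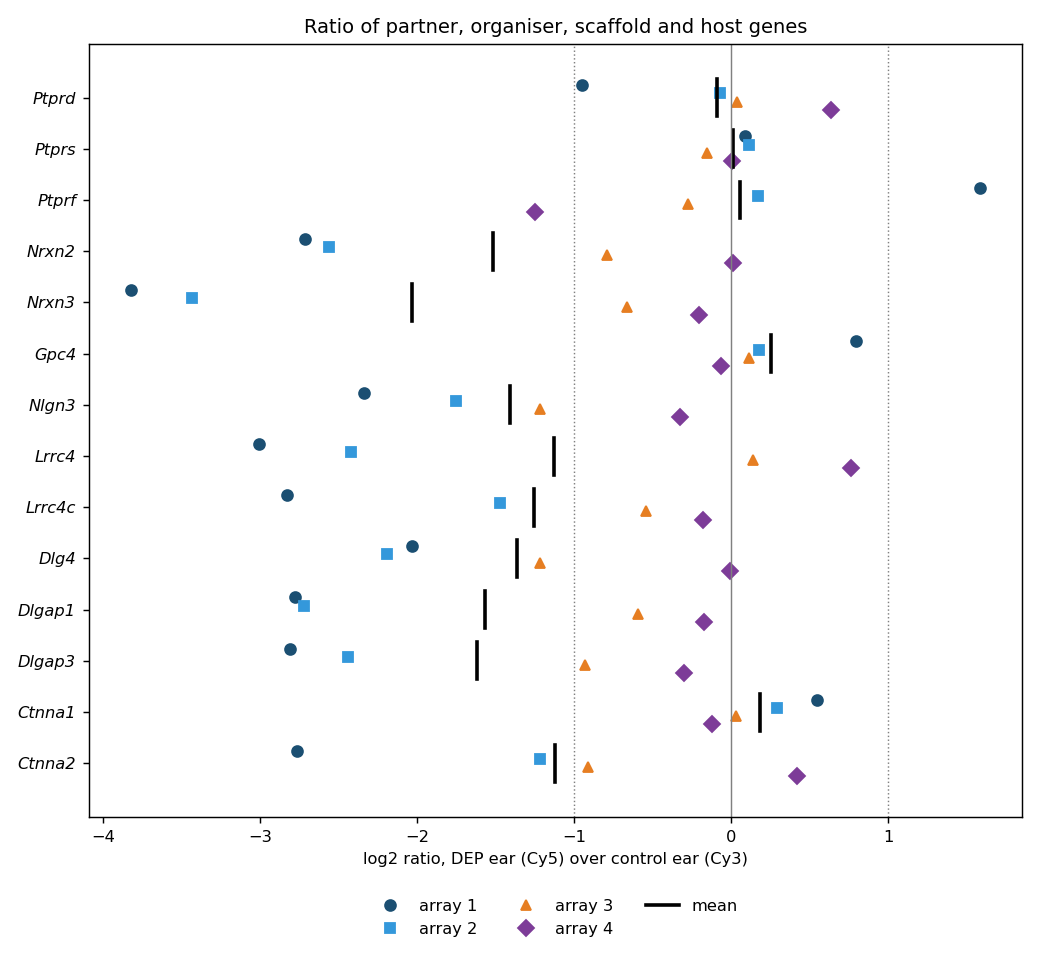
Log2 ratio of DEP over control (horizontal axis) for presynaptic partners, other organisers, scaffolds and host catenins, with a symbol per array and a black bar for the mean. Nrxn3 and Nrxn2 average -2.03 and -1.51, whereas Ptprd, Ptprs and Ptprf average -0.09 to 0.06.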

How the data were processed

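Total RNA of dissected middle ears was hybridised to 4 two-colour Agilent arrays that share 1 slide and 1 scan, which leaves no batch to compare. Spots were quantified by the authors in Feature Extraction, version 10.10.1.1. The deposited processed intensity is background-subtracted and dye-normalized within the array, and each deposited log10 ratio sets processed Cy5 against processed Cy3. Dyes were not swapped, and dye bias and exposure therefore cannot be told apart. The channel of each extract was taken from the source names in the labels, which otherwise list the treatments of both groups under Cy5. Correction within arrays makes the median ratio close to 0 by construction.

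Ratios were rescaled to log2. Left out were control spots, outlier-marked spots (164 to 274 per array) and spots without a ratio (6179 to 8558 of 43020). Accessions named 27655 of 39429 probes through the RefSeq table of GRCm38.p6, which also gave chromosomes, gene order and nesting. Promoter windows and their coordinates are those of RefSeq on the same assembly. The brightest probe with a ratio on at least 3 arrays stood for a gene. An intercept was fitted with limma 3.58.1 (R 4.3.3) by lmFit and eBayes over 31577 probes, and two-sided p-values were adjusted by the Benjamini-Hochberg method across these probes. Tables and figures were made in Python 3.11.15 with numpy 2.4.6, pandas 2.3.3 and matplotlib 3.10.9. On simulated ratios for DEP over control, over 31577 probes, 52 of 100 probes changed by 2 and 16 of 100 changed by 1 on the log2 scale were recovered, with 4 false calls among 72. The number of arrays limits the precision. Between 66.6% and 70.0% of spots were well above background in Cy5 and 60.5% to 69.1% in Cy3.

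The genes and lists were chosen with earlier results of these data known. Named were all group members, all presynaptic partners and host catenins, the 3 genes measured in full with the largest mean ratio among other organisers and among scaffolds, and the 5 genes most like Slitrk1, except that some results under this rule are not reported here. The alternatives were normexp (offset 50, on the median spot signals) with loess or median centring, the deposited series table, filters on dim probes, flagged spots kept, the mean over probes, an intensity trend, no moderation, and leaving out each array. No column of values was left without a sample.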

Additional observations from a re-analysis of the deposited data

How the results depend on the processing

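The count of 5 Slitrk and Lrrtm genes past 2-fold lower was 2 with normexp under loess and also 2 under median centring, while the share of all genes past 2-fold lower went from 4.06% to 1.78% and 1.02%. It was 3 when dim probes were removed, whether 1 channel or both had to be measured on every array (2.89% and 2.76% of all genes). With 1 replicate left out it ranged from 2 (replicate 1) to 6, and the share of all genes from 2.83% to 6.25%. The number of higher genes past 2-fold was 0 under all these alternatives. The median log2 ratio of the genes, -1.01, was -0.68 and -0.70 with normexp and ranged from -1.58 to -0.57 with 1 replicate left out. Of 91 values of single genes under the alternatives, 0 changed sign. Many of them could not, since the deposited series table, the filters on dim probes and kept flagged spots left the ratios nearly unchanged. Without replicate 1 Lrrtm2 was -0.22 and Slitrk3 -0.39, and Lrrtm4, not above background, was -0.07 with normexp and loess. Slitrk1 ranged from -2.51 to -1.26 with 1 replicate left out and was -1.17 and -1.10 with normexp and loess or median centring.

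Of the partner, organiser, scaffold and host genes, 14 were lower at an unadjusted p under 0.05. This number was 6 without moderation of the variance and ranged from 2 (without replicate 2) to 22 (without replicate 4) with 1 replicate left out. With normexp and median centring, 2 genes were higher at an unadjusted p under 0.05. At that level 6990 of all 17962 genes were called in either direction, 1231 of them lower. The same number of listed genes, 2, had an adjusted p under 0.05, Ptprs at 0.62 (adjusted p = 0.0347 from limma) and Ctnna1 at 0.67 (adjusted p = 0.042 from limma). Over the alternatives their adjusted p ranged from 0.0347 to 0.967 and from 0.042 to 0.818. This setting, background correction and centring together, moved the median of all genes by 0.15, and 12.4% of all genes had an adjusted p under 0.05 under it. Ptprs and Ctnna1 lay above that shift. With normexp and loess they averaged 0.04 and 0.13. The cause of these changes was not tested. The mean over the probes of a gene was not run for these genes. No paired analysis was possible because the ratio of each array already sets its 2 channels against each other and the labels hold 1 group. Signal over background limits the group, since 5 of 10 genes were measured in full.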
